A study of Mus musculus with 5 samples.

Results

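The genes of the proteasome were examined in cultured TAZ-KO and WT clones of 4T1, a mouse mammary carcinoma line. The members were all genes in the deposited count table with a symbol that starts with Psma, Psmb, Psmc, Psmd or Psme followed by a number, which gave 43 of the 13143 genes listed. Of these, 3 encode the inducible catalytic subunits of the immunoproteasome (Psmb8, Psmb9 and Psmb10) and 40 are other matches. The letters also caught Psmc3ip, which encodes a recombination protein and no proteasome subunit, and Psme2b, an annotated copy of Psme2, and these are described apart. Psma8 and Psmb11, the testis and thymus members of the family, were not analysed here. The study concerns TAZ, a transcriptional co-activator of the Hippo pathway, in breast cancer, and the comparison was between 2 TAZ-KO clones and 3 WT clones with 1 RNA-seq library each. All clones express Cas9 and none received a treatment. The TAZ-KO clones additionally carry a lentiviral guide RNA that targets Wwtr1, which encodes TAZ, and went through puromycin selection, with the same guide and parent clone for both, whereas the WT clones were single-cell clones that received no guide. Genotype, guide vector, selection and the shared parent clone of the TAZ-KO clones therefore cannot be told apart. Since each library is a clone, a p-value here reflects clone-to-clone spread, and the 2 TAZ-KO clones come from 1 parent.

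The proteasome is the main protease of the cytosol and nucleus and degrades proteins tagged with ubiquitin. Its core particle is a barrel of alpha rings, which gate entry, around beta rings, which hold the cleaving sites of Psmb5, Psmb6 and Psmb7. Interferons induce Psmb8, Psmb9 and Psmb10, which take the places of these subunits in new particles and alter the peptides offered to major histocompatibility class I molecules. The regulatory particle has a base of ATPases (Psmc) that unfold substrates and a set of non-ATPase subunits (Psmd) that bind and remove ubiquitin, and the activators (Psme) are alternative caps. Proteasome genes are usually transcribed together, with Nfe2l1 acting through antioxidant response elements, and the inducible genes respond to the interferon-regulated factor Irf1.

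Total counts were between 14695384 and 16452147 per library. Levels (CPM) are read counts set to the same total for each library, with library sizes adjusted by the trimmed mean of M-values (TMM), and 3 counts corresponded to 0.184 to 0.203 CPM. Fold changes are TAZ-KO over WT from edgeR, and a call is an adjusted p under 0.05 over all genes tested. Values of single libraries are given in the order of clone number, 1 and 2 for TAZ-KO and 1, 2 and 3 for WT. Wwtr1 was at 129 and 152 CPM in TAZ-KO clones, against 659.7, 312 and 315 CPM in WT clones, so that both TAZ-KO clones were lowest. The labels give the genotype and no transcript level. The log2 fold change of Wwtr1 was -1.61 (SE 0.40, adjusted p = 0.190 by edgeR), and -1.16 (SE 0.16, adjusted p = 0.00193 by edgeR) without WT clone 1. On all 5 libraries it also passed DESeq2 (-1.61, adjusted p = 0.00594) and edgeR with 1 surrogate variable (-2.02, adjusted p = 0.00205). The library of WT clone 1 stood apart from the other WT libraries. It was nearer to the TAZ-KO mean than to the mean of WT clones 2 and 3 in 64.4% of the genes tested and in 22 of the 43 members (51.2%). Calls, and the fold changes of many genes set out in detail, are therefore given with and without it. That clone was singled out on these same values, and such nearness was not computed for WT clones 2 and 3. With WT clone 1 left out, edgeR called 2263 genes higher (19.1%) and 2335 lower (19.7%) of 11871 tested. Calls without it thus show how far a result depends on WT clone 1 and are not independent support. Of 8 epithelial markers 8 were listed, with a summed level of 3437 to 3730 CPM in TAZ-KO clones and 2369 to 4385 CPM in WT clones. Most of it came from Krt8, Krt18, Krt7 and Cdh1. Krt14 had 3 counts in WT clone 1 and Cldn7 had 4 counts in TAZ-KO clone 2. Of 12 leukocyte markers 8 were listed, with sums of 11.96 to 12.4 CPM in TAZ-KO clones and 17.6 to 34.6 CPM in WT clones, most of it from Cd68, while Ptprc, which defines leukocytes, was at 0.0667 to 0.529 CPM in TAZ-KO clones and at 0 to 0.543 CPM in WT clones. Fibroblast markers (4 of 6 listed) summed to 88.2 to 94.9 CPM in TAZ-KO clones and 29.7 to 117 CPM in WT clones, mostly from Pdgfra, and endothelial markers (2 of 4) to 0.476 to 0.650 CPM in TAZ-KO clones and 0.304 to 1.43 CPM in WT clones.

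Sequence is shown for members whose levels are set out in most detail. These are the inducible genes, Psmb5, the constitutive counterpart of Psmb8, and Psmd8, with the largest fold change among the constitutive genes. The 250 bases before the RefSeq start site (GRCm38.p6) are printed for each. They lie at chr17:34197945-34198194 (plus strand), chr17:34187331-34187580 (minus strand), chr8:105938393-105938642 (minus strand), chr14:54617996-54618245 (minus strand) and chr7:29180674-29180923 (minus strand), each read 5′ to 3′ on the strand of the gene. Capitals mark every match, on either strand, to a TEAD site (GGAATG, the factors through which TAZ binds DNA), a CCAAT box (CCAAT), an antioxidant response element (TGACNNNGC), an interferon-stimulated response element (GAAA, any 2 bases, GAAA) or a gamma-activated site (TTCNNNGAA).
Psmb8: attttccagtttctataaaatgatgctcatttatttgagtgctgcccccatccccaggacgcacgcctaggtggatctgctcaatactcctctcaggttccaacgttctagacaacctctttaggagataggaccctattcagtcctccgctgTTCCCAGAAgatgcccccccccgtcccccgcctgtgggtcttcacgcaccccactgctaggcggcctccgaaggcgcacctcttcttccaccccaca
Psmb9: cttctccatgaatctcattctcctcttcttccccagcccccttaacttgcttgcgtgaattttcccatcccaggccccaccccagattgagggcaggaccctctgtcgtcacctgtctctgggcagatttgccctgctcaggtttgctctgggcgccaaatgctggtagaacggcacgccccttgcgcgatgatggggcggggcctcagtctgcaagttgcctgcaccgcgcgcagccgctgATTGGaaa
Psmb10: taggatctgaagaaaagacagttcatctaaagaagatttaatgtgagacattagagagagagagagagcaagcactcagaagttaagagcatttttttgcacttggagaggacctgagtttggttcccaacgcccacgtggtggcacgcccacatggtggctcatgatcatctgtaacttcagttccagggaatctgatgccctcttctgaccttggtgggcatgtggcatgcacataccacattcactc
Psmb5: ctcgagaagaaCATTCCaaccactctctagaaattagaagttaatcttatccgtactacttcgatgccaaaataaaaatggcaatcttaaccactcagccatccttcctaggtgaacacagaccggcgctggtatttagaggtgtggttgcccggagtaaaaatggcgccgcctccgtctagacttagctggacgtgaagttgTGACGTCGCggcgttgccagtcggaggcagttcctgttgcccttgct
Psmd8: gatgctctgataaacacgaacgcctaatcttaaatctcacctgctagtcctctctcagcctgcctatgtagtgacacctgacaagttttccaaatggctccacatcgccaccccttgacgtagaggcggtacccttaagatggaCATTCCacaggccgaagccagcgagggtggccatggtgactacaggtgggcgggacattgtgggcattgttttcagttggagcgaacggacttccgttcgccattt

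In these windows Psmb8 has a gamma-activated site 97 to 89 bases before its RefSeq start. Psmb9 has a reversed CCAAT box 8 to 4 bases before its own, and Psmb10 no match. The windows of Psmb8 and Psmb9 lie wholly inside the spans that GENCODE gives these genes (34197721 to 34201454 and 34181987 to 34187764). Those of Psmb10, Psmb5 and Psmd8 lie partly inside theirs, so the starts differ between RefSeq and GENCODE. Psmb5 has a reversed TEAD site at 239 to 234 bases and an antioxidant response element at 47 to 39 bases before its start, and Psmd8 a reversed TEAD site at 106 to 101 bases. A window was found for 37 of the 43 members. TEAD sites were matched in 4 of the 37 (Psmb5, Psmd8, Psmd9 and Psme2; 10.8%, against 14.4% of 27025 genes), CCAAT boxes in 14 (37.8%, against 37.5%) and antioxidant response elements in 5 (Psmb5, Psmb6, Psmc6, Psmd12 and Psmd9; 13.5%, against 11.5%). Interferon-stimulated response elements were matched in 3 (Psmb3, Psmd4 and Psmd9; 8.11%, against 3.46%) and a gamma-activated site in Psmb8 alone (2.7%, against 8.13%). The Psmb9 window shares 225 bases with that of Tap1, a peptide transporter gene transcribed the other way from a start 226 bases away. A match describes the letters only, and no match says nothing about binding.

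In edgeR's test on all 5 libraries no member passed in either direction. Of 11975 genes tested, 1 was called higher in TAZ-KO clones (0.00835%) and 5 lower (0.0418%), and all 43 members were tested. At an unadjusted p under 0.05 there were 5 members higher in TAZ-KO clones (Psma2, Psma5, Psmc3ip, Psmd1 and Psmd7, or 11.6%, against 7.94% of all genes) and 0 lower (against 9.41%). The smallest adjusted p of a member was 0.235. DESeq2, limma-voom (1 gene higher, 0.00835%, and 3 lower, 0.0251%, of all tested), a fit with 1 surrogate variable and a fit with the replicate number as a block called 0 members as well, although DESeq2 called 282 genes higher (2.15%) and 408 lower (3.11%) and the surrogate variable fit 228 higher (1.9%) and 300 lower (2.51%). The median log2 fold change was 0.03 over all members and over the 39 constitutive genes, which are all members but Psmb8, Psmb9, Psmb10 and Psmc3ip and thus include Psme2b. It was also 0.03 over the 38 without Psme2b, and -0.03 over all genes tested. Members made up 0.594% and 0.557% of the counts in TAZ-KO clones 1 and 2 and 0.509%, 0.618% and 0.606% in WT clones 1, 2 and 3, so the TAZ-KO clones lay inside the range of the WT clones. In bulk libraries, fewer cells with a transcript and less of it per cell cannot be told apart.

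**Figure D1:**
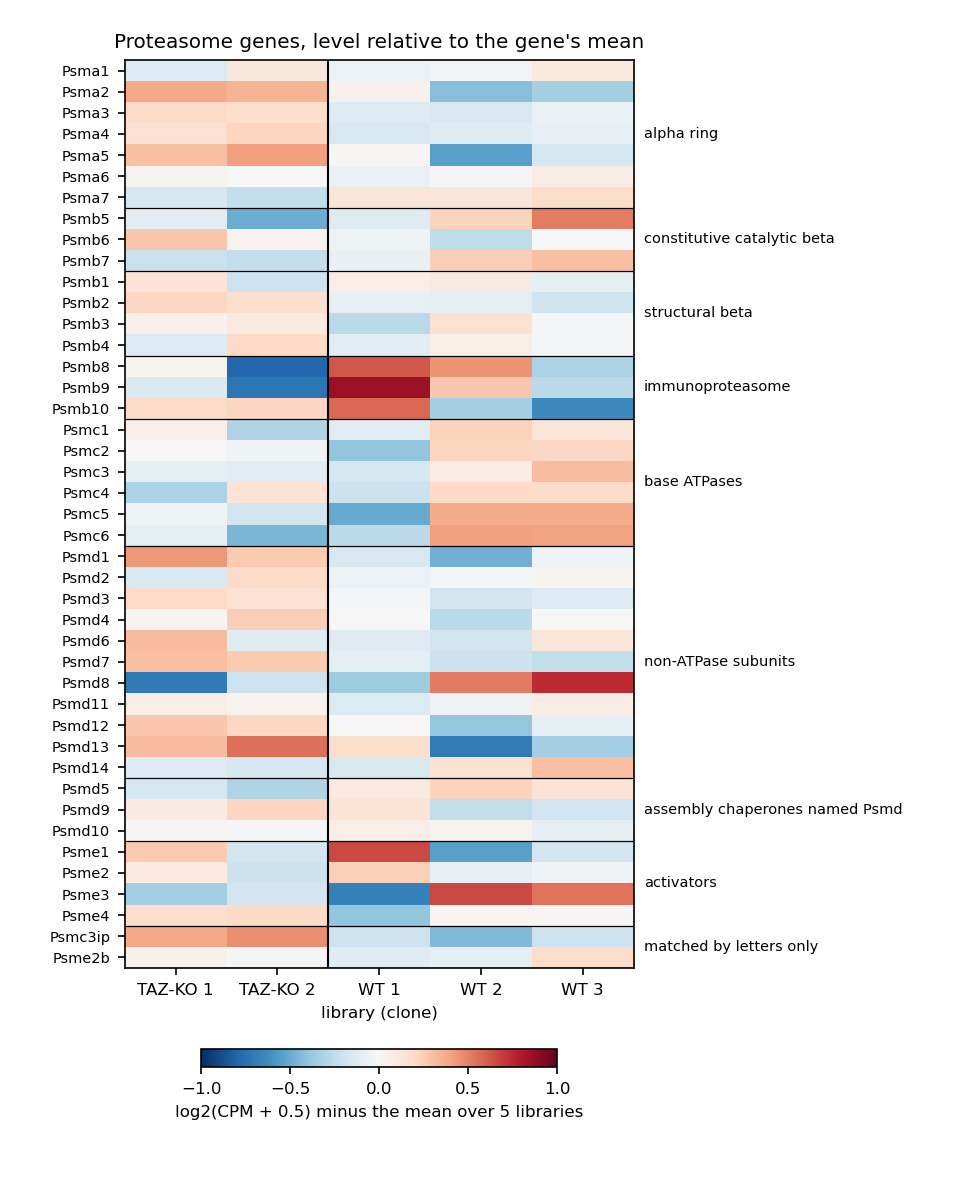
Level of each of the 43 members (rows, grouped by role) in the 5 libraries (columns, TAZ-KO clones left of WT clones), as log2(CPM + 0.5) minus the gene's mean over the libraries, with red above and blue below that mean. Psmb8 and Psmb9 are lowest in TAZ-KO clone 2 and highest in WT clone 1, and the 6 base ATPases are higher in WT clones 2 and 3 than in WT clone 1.

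Although no difference was called, the libraries of the groups did not overlap for 17 members. TAZ-KO libraries were both above the highest WT library for 14 members (32.6%, against 18.7% of all genes tested) and both below the lowest for 3, namely Psma7, Psmb7 and Psmd5 (6.98%, against 18.6%). Psma7, Psmb7 and Psmd5 all lie on chromosome 2. There the log2 level of each gene in a library was set against its mean over the other libraries. The median over 922 genes was -0.20 and -0.23 in TAZ-KO clones, against 0.13, 0.09 and 0.12 in WT clones. These group values differed by -0.33. Since each library is left out of its own mean, this scale is wider than that of a fold change, and the sizes cannot be compared directly. The 3 genes had log2 fold changes of -0.36, -0.40 and -0.39, and the other members there, Psmc3 and Psmd14, -0.18 and -0.26. The part of the chromosome in these values was not tested. The 14 were Psma2, Psma3, Psma4, Psma5, Psmb2, Psmb6, Psmc3ip, Psmd1, Psmd3, Psmd4, Psmd7, Psmd12, Psmd13 and Psme4. Without WT clone 1 the counts were 17 above (39.5%, against 36.2%) and 13 below (30.2%, against 36.7%). The same change of samples altered the calls. Without WT clone 1, edgeR called 7 members higher (Psma2, Psma5, Psmb10, Psmc3ip, Psmd1, Psmd7 and Psmd13; 16.3%, against 19.1% of all genes) and 6 lower (Psmb5, Psmb7, Psmc5, Psmc6, Psmd8 and Psme3; 14%, against 19.7%), while 0 were called when any other library was left out. These shares were near those of all genes, if slightly below them in both directions, and nothing particular to the members is read from them. The 7 also include Psmc3ip, which is no proteasome subunit.

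Among the immunoproteasome genes, Psmb8 and Psmb9 averaged lower and Psmb10 higher in TAZ-KO clones, with ranges that overlapped those of WT clones. The median log2 fold change of the 3 genes was -0.63, and none passed the test. Psmb8 (chromosome 17, 34197721 to 34201454, plus strand), whose product replaces Psmb5 and cleaves after hydrophobic residues, was at 35.6 and 19.9 CPM in TAZ-KO clones, against 53.6, 47.4 and 27.8 CPM in WT clones. TAZ-KO clone 2 was the lowest of the 5 libraries, but TAZ-KO clone 1 lay above WT clone 3. The means were 27.7 ± 11.1 CPM in TAZ-KO clones and 42.9 ± 13.5 CPM in WT clones, with a log2 fold change of -0.63 (SE 0.38, adjusted p = 0.414 by edgeR), and without WT clone 1 the log2 fold change was -0.44 (SE 0.33, adjusted p = 0.324 by edgeR). With 1 surrogate variable it was larger, at -0.82, and did not pass either.

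Psmb9 (chromosome 17, 34181987 to 34187764, minus strand), the replacement of Psmb6, rested on few reads. It had 40 and 24 counts in TAZ-KO clones 1 and 2 and 86, 60 and 39 counts in WT clones 1, 2 and 3, which correspond to 2.64 and 1.60 CPM in TAZ-KO clones and 5.83, 3.68 and 2.41 CPM in WT clones. The exact Poisson 95% interval of the lowest count ran from 15.4 to 35.7 (TAZ-KO clone 2) and that of the highest from 68.8 to 106 (WT clone 1), whereas TAZ-KO clone 1 and WT clone 3 had almost the same number. The log2 fold change was -0.90 (SE 0.53, adjusted p = 0.402 by edgeR), and -0.52 (SE 0.46, adjusted p = 0.404 by edgeR) without WT clone 1. With 1 surrogate variable it was larger, at -1.24, and did not pass either. Exons of Psmb9 overlap Tap1 on the other strand, and since no source used here states how strand was handled, the reads of these genes cannot be told apart where they overlap. The difference of log2 levels, Psmb9 minus Tap1, averaged -2.32 ± 0.27 in TAZ-KO clones and -2.32 ± 0.43 in WT clones.

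Psmb10 (chromosome 8, 105935735 to 105938444, minus strand), which replaces Psmb7 and cleaves after basic residues, was at 27.8 and 28.2 CPM in TAZ-KO clones, against 36.3, 19.1 and 15.3 CPM in WT clones. Both TAZ-KO clones were between WT clone 1, which was highest, and WT clones 2 and 3, which were lowest. The log2 fold change was 0.25 (SE 0.39, adjusted p = 0.755 by edgeR). Without WT clone 1 it was 0.70 (SE 0.20, adjusted p = 0.0281 by edgeR) and passed the test, while with 1 surrogate variable it was -0.15. Its call thus depended on WT clone 1. Together the inducible genes gave 1.14 and 0.868 counts per 100 member counts in TAZ-KO clones 1 and 2, against 1.81, 1.19 and 0.741 in WT clones 1, 2 and 3. Leukocytes carry immunoproteasomes, but the libraries came from cultured clones of a carcinoma line. The summed leukocyte markers given above, mostly Cd68, were lower in both TAZ-KO clones than in any WT clone. That sum was highest in WT clone 2 (34.6 CPM), whereas Psmb8 and Psmb9 were highest in WT clone 1. Ptprc averaged 0.298 CPM in TAZ-KO clones and 0.242 CPM in WT clones, with 0.543 CPM or less in every library. Whether the summed markers have a part in the levels of Psmb8 and Psmb9 was not tested.

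**Figure D2:**
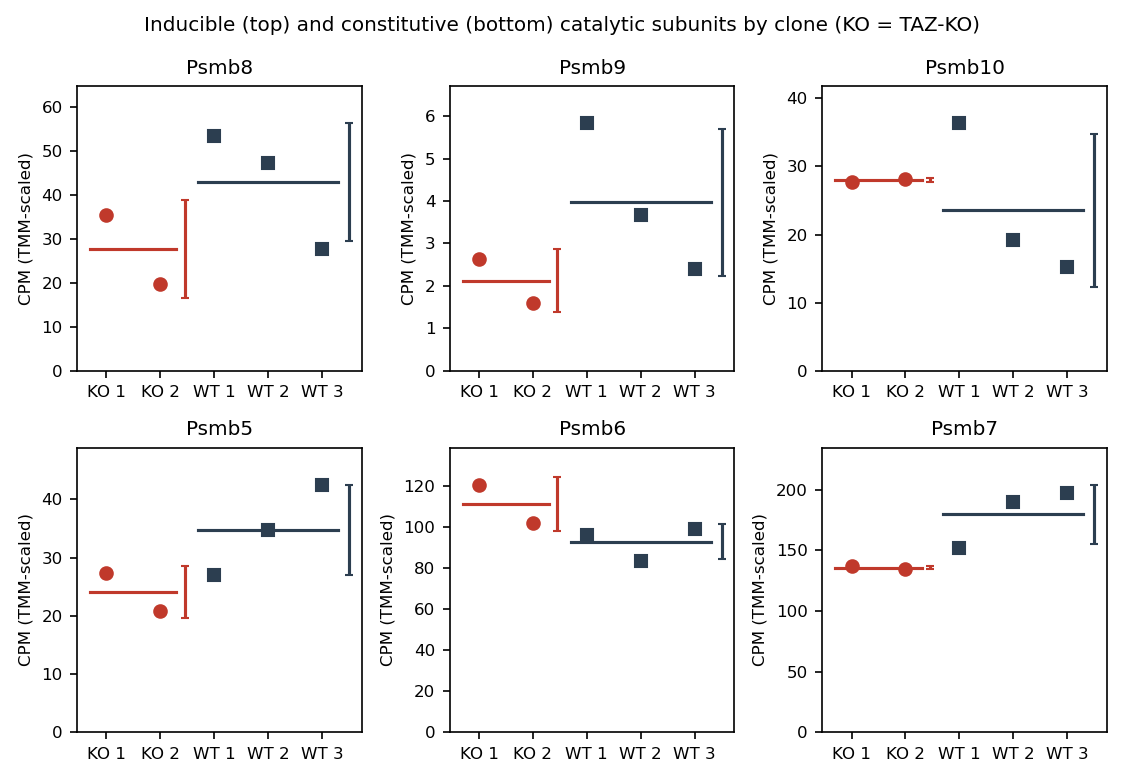
CPM of the inducible catalytic subunits (top) and of the constitutive subunits that they replace (bottom) in TAZ-KO clones (circles) and WT clones (squares), with lines at the group means and bars of 1 SD (n = 2 TAZ-KO, n = 3 WT). Psmb7 is the only one of the 6 with the highest TAZ-KO clone under the lowest WT clone, and Psmb6 the only one with both above.

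The fold changes of the constitutive catalytic genes did not share a direction. Psmb5, the chymotrypsin-like subunit and the target of bortezomib, was at 27.3 and 20.9 CPM in TAZ-KO clones, against 27.0, 34.7 and 42.5 CPM in WT clones, with a log2 fold change of -0.53 (SE 0.28, adjusted p = 0.362 by edgeR). WT clone 1 lay within the TAZ-KO range, and without it the log2 fold change was -0.68 (SE 0.21, adjusted p = 0.0344 by edgeR). Psmb7, the trypsin-like subunit, was at 137 and 135 CPM in TAZ-KO clones, against 152, 189.8 and 198 CPM in WT clones, with a log2 fold change of -0.40 (SE 0.21, adjusted p = 0.352 by edgeR). Each TAZ-KO clone was below each WT clone, and without WT clone 1 the log2 fold change was -0.51 (SE 0.15, adjusted p = 0.0281 by edgeR). Exons of Psmb7 overlap Nek6 on the other strand. Psmb6, the caspase-like subunit, ran the other way, at 121 and 102 CPM in TAZ-KO clones, against 96.4, 83.4 and 99.2 CPM in WT clones, with a log2 fold change of 0.26 (SE 0.20, adjusted p = 0.501 by edgeR), so that both TAZ-KO clones were above every WT clone.

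Each inducible gene was also set against the subunit that it replaces. The log2 level of Psmb9 minus that of Psmb6 was -5.51 and -5.99 in TAZ-KO clones 1 and 2, against -4.05, -4.50 and -5.37 in WT clones 1, 2 and 3. The values of TAZ-KO clone 1 and WT clone 3 rest on 40 and 39 counts of Psmb9, whose Poisson intervals (28.6 to 54.5 and 27.7 to 53.3) overlap, so the order of these clones is within counting error. The means were -5.75 ± 0.34 in TAZ-KO clones and -4.64 ± 0.67 in WT clones, a difference of -1.11. Psmb8 minus Psmb5 was 0.38 and -0.07 in TAZ-KO clones, inside the WT values of 0.99, 0.45 and -0.61. Psmb10 minus Psmb7 was -2.30 and -2.26 in TAZ-KO clones, between -2.06 in WT clone 1 and -3.31 and -3.69 in WT clones 2 and 3. These differences are between genes of unequal length and only their change between libraries can be read. With 3 libraries against 2, an exact permutation test has 10 splits and cannot give a p under 0.1, and no test was made of them.

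The alpha ring genes had mostly positive fold changes, and none passed the test on all 5 libraries. Of 7 genes, 5 had a positive log2 fold change, the median was 0.30 against -0.03 over all genes tested, and 4 (57.1%, against 18.7% of all genes tested) had both TAZ-KO clones above every WT clone. Psma2 was at 119 and 116 CPM in TAZ-KO clones, against 94.2, 67.9 and 72.8 CPM in WT clones, with means of 118 ± 2.14 CPM in TAZ-KO clones and 78.3 ± 13.98 CPM in WT clones and a log2 fold change of 0.59 (SE 0.21, adjusted p = 0.262 by edgeR). Psma5 was at 57.0 and 61.4 CPM in TAZ-KO clones, against 46.5, 31.5 and 40.8 CPM in WT clones, with a log2 fold change of 0.58 (SE 0.23, adjusted p = 0.281 by edgeR). WT clone 1 was the nearest WT clone to the TAZ-KO clones for both genes. Without it the log2 fold changes were 0.75 (SE 0.15, adjusted p = 0.00689 by edgeR) for Psma2 and 0.71 (SE 0.18, adjusted p = 0.0176 by edgeR) for Psma5. Psma3 was at 37.4 and 36.8 CPM in TAZ-KO clones, against 29.8, 29.2 and 31.3 CPM in WT clones, with a log2 fold change of 0.30, and Psma4 at 88.9 and 92.7 CPM in TAZ-KO clones, against 71.5, 73.3 and 75.2 CPM in WT clones, with 0.31. Neither overlapped between groups, whereas the log2 fold changes of Psma1 and Psma6 were -0.01 and 0.01. Psma7 was the exception, at 163 and 155 CPM in TAZ-KO clones, against 201, 200.4 and 209.9 CPM in WT clones, with a log2 fold change of -0.36 (SE 0.18, adjusted p = 0.353 by edgeR), with the highest TAZ-KO clone under the lowest WT clone. The subunits of this ring form a complex in equal numbers, and their transcripts did not share a direction.

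The structural beta genes, which complete the inner rings without a cleaving site, differed little. Their median log2 fold change was 0.08. Psmb2 was at 173 and 167 CPM in TAZ-KO clones, against 141, 140.0 and 130.3 CPM in WT clones, with a log2 fold change of 0.31 (SE 0.18, adjusted p = 0.400 by edgeR), and both TAZ-KO clones were above every WT clone. Psmb3 was at 45.8 and 47.6 CPM in TAZ-KO clones, against 36.9, 49.6 and 43.9 CPM in WT clones, with a log2 fold change of 0.11 (SE 0.21, adjusted p = 0.807 by edgeR), with overlap of the groups. Psmb1 and Psmb4 had log2 fold changes of -0.05 and 0.06, and the spread between the TAZ-KO clones was larger than either difference.

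**Figure D3:**
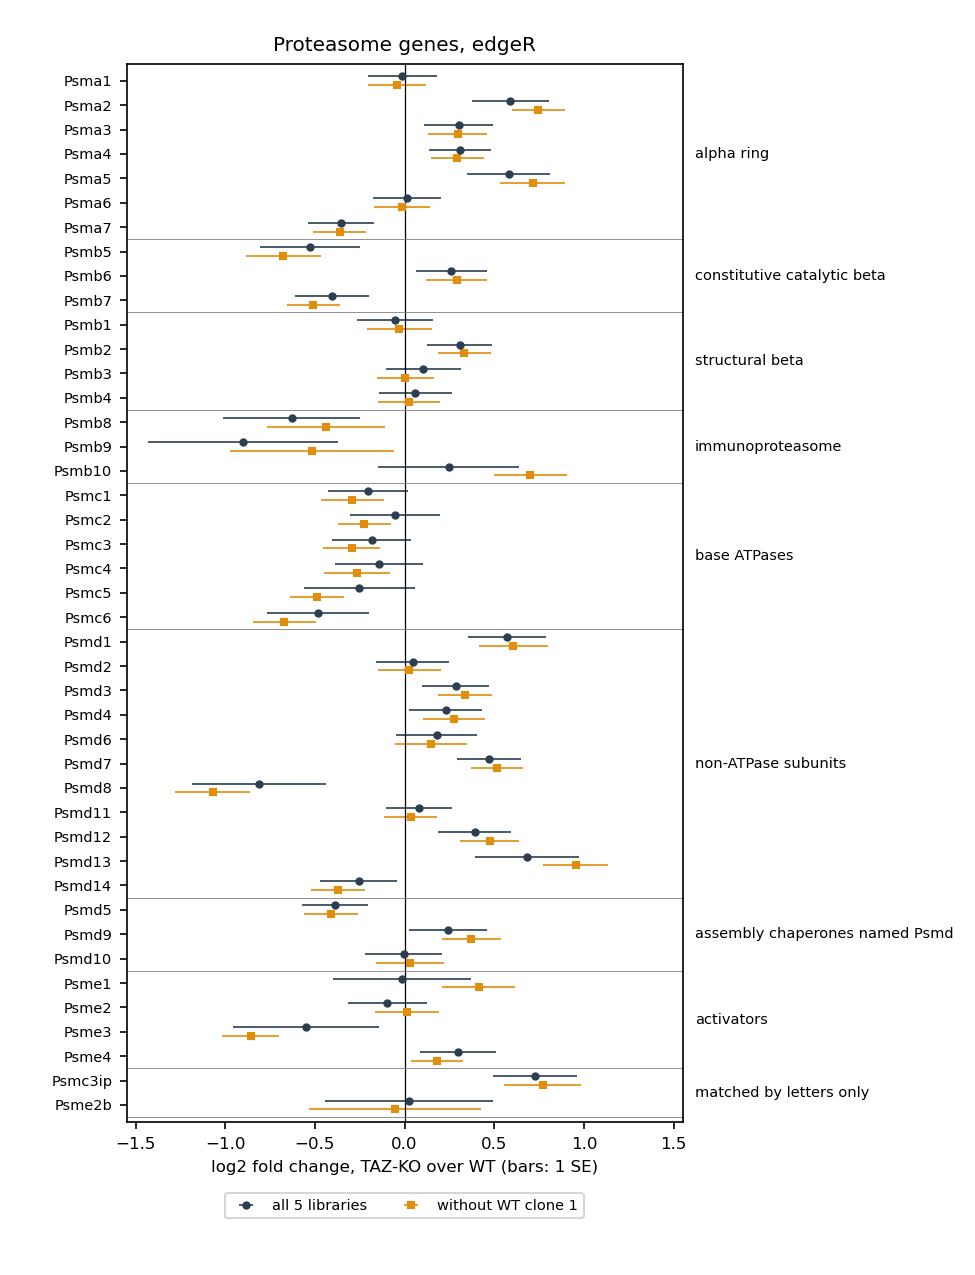
edgeR log2 fold change of each member, TAZ-KO over WT, with bars of 1 SE, for all 5 libraries (dark circles) and without WT clone 1 (orange squares). All 6 base ATPases lie below 0 in both fits, although 4 of the 6 were above 0 with 1 surrogate variable (not drawn), and 9 of the 11 non-ATPase subunits above 0, while Psmd8 lies lowest of the constitutive genes.

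All 6 ATPase genes of the base had a negative log2 fold change, from -0.48 to -0.05 with a median of -0.19, but none passed the test and the groups overlapped for all 6. With 1 surrogate variable 4 of the 6 turned positive (Psmc2 0.25, Psmc3 0.0007, Psmc4 0.05 and Psmc5 0.21) and the median was 0.02. Their median level, relative to each gene's mean on the log2 scale, was -0.07 and -0.15 in TAZ-KO clones 1 and 2, against -0.24, 0.23 and 0.26 in WT clones 1, 2 and 3. WT clone 1 was thus the lowest library and WT clones 2 and 3 the highest. Psmc6, the ATPase with the largest fold change, was at 183 and 142 CPM in TAZ-KO clones, against 163, 260.0 and 259 CPM in WT clones, with a log2 fold change of -0.48 (SE 0.28, adjusted p = 0.401 by edgeR). Psmc5 was at 124 and 113 CPM in TAZ-KO clones, against 90.4, 166 and 166 CPM in WT clones, with a log2 fold change of -0.25 (SE 0.31, adjusted p = 0.677 by edgeR). Without WT clone 1 their log2 fold changes were -0.67 (SE 0.18, adjusted p = 0.0195 by edgeR) and -0.49 (SE 0.15, adjusted p = 0.0338 by edgeR). The ATPases assemble in a ring of 1 copy each, and Psmc2 showed the same order of WT clones, at 199 and 193 CPM in TAZ-KO clones, against 151, 231 and 229 CPM in WT clones. The remaining Psmc1, Psmc2, Psmc3 and Psmc4 had log2 fold changes of -0.20, -0.05, -0.18 and -0.14.

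Of the non-ATPase genes, 9 of 11 had a positive fold change (against 48% of all genes tested), with a median of 0.23, and 6 (54.5%, against 18.7%) had both TAZ-KO clones above every WT clone. No test of a difference from the ATPase genes was made. Psmd13, a subunit of the lid, was at 104 and 123 CPM in TAZ-KO clones, against 94.9, 51.3 and 66.2 CPM in WT clones, with a log2 fold change of 0.68 (SE 0.29, adjusted p = 0.298 by edgeR). All WT clones lay below both TAZ-KO clones, with WT clone 1 the nearest, and without it the log2 fold change was 0.95 (SE 0.18, adjusted p = 0.00612 by edgeR). Exons of Psmd13 overlap Sirt3, and those of Psmd1 overlap Htr2b, on the other strand. Psmd1, a large scaffold subunit of the base, was at 396 and 352 CPM in TAZ-KO clones, against 263, 209.7 and 283 CPM in WT clones, with a log2 fold change of 0.57 (SE 0.22, adjusted p = 0.276 by edgeR). Psmd7, the partner of the ubiquitin-removing enzyme Psmd14, was at 171 and 166 CPM in TAZ-KO clones, against 129, 119 and 117 CPM in WT clones, with a log2 fold change of 0.47 (SE 0.18, adjusted p = 0.273 by edgeR). For both, the groups did not overlap, and the log2 fold changes without WT clone 1 were 0.61 (SE 0.19, adjusted p = 0.0398 by edgeR) and 0.52 (SE 0.15, adjusted p = 0.0259 by edgeR).

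Psmd8, a lid subunit whose yeast counterpart joins the lid last, had the largest fold change of the constitutive genes and was lower in TAZ-KO clones. It was at 162 and 230.0 CPM in TAZ-KO clones, against 207, 380.5 and 445 CPM in WT clones, with a log2 fold change of -0.81 (SE 0.37, adjusted p = 0.318 by edgeR). Its groups overlapped, because WT clone 1 lay below TAZ-KO clone 2, and without WT clone 1 the log2 fold change was -1.07 (SE 0.21, adjusted p = 0.00647 by edgeR). Psmd14 itself had a log2 fold change of -0.26 (SE 0.21, adjusted p = 0.539 by edgeR), and that of the ubiquitin receptor Psmd4 was 0.23 without overlap between groups. Psmd12, a scaffold of the lid, was at 165 and 159 CPM in TAZ-KO clones, against 137, 105 and 129 CPM in WT clones, and Psmd3, another lid subunit, at 275 and 267 CPM in TAZ-KO clones, against 238, 212 and 219 CPM in WT clones, both without overlap. The log2 fold changes of Psmd2, Psmd3, Psmd6, Psmd11 and Psmd12 were between 0.04 (Psmd2) and 0.39 (Psmd12).

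**Figure D4:**
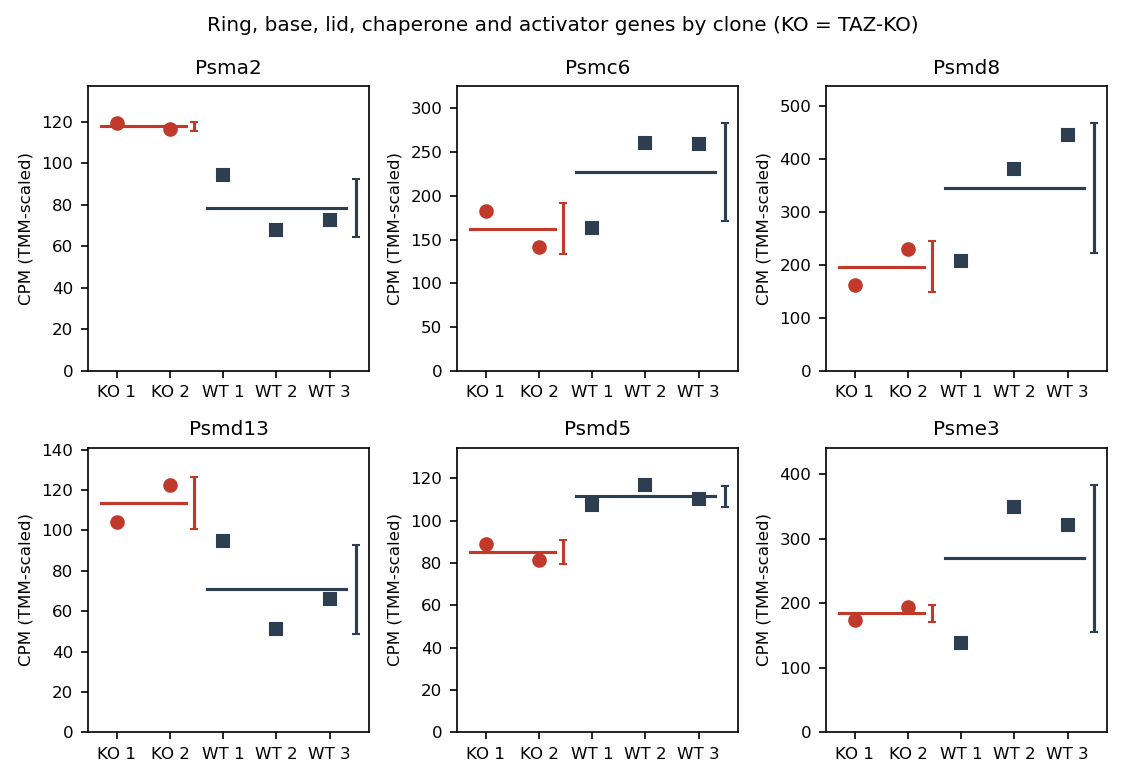
CPM of the member with the largest absolute fold change in the alpha ring (Psma2), the ATPases (Psmc6), the assembly chaperones (Psmd5) and the activators (Psme3), and of the 2 such members among the non-ATPase subunits (Psmd8, Psmd13), in TAZ-KO clones (circles) and WT clones (squares), with lines at the means and bars of 1 SD (n = 2 TAZ-KO, n = 3 WT). WT clone 1 lies beside the TAZ-KO clones for Psmc6 and Psmd8 and below them for Psme3.

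Of the chaperones with a Psmd name, which help to build the base and are not part of the finished particle, Psmd5 was lower in TAZ-KO clones, at 89.1 and 81.2 CPM in TAZ-KO clones, against 107, 117 and 110.0 CPM in WT clones, with a log2 fold change of -0.39 (SE 0.18, adjusted p = 0.324 by edgeR). Each TAZ-KO clone was below each WT clone. Psmd9 was at 39.0 and 42.6 CPM in TAZ-KO clones, against 40.4, 31.0 and 32.2 CPM in WT clones, with a log2 fold change of 0.24 (SE 0.22, adjusted p = 0.567 by edgeR), and Psmd10, also known as gankyrin, had a log2 fold change of -0.01 with a narrow range over all 5 libraries (20.4 to 22.9 CPM).

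Among the activators, Psme1 and Psme3 differed more among the WT clones than between the group means. Psme1 and Psme2, which form the interferon-inducible cap linked to antigen processing, overlapped between groups. Psme1 was at 103 and 75.7 CPM in TAZ-KO clones, against 136, 59.2 and 75.6 CPM in WT clones. For Psme1, WT clone 1 was highest and WT clone 2 lowest, so the TAZ-KO clones were inside the WT range, and the log2 fold change was -0.01 (SE 0.38, adjusted p = 0.988 by edgeR). Psme2 was at 42.5 and 34.2 CPM in TAZ-KO clones, against 46.8, 37.4 and 38.7 CPM in WT clones, with a log2 fold change of -0.10 (SE 0.22, adjusted p = 0.835 by edgeR). Signs of both genes depended on single libraries, with 0.41 for Psme1 and 0.01 for Psme2 without WT clone 1. Reads of Psme2 and its copy Psme2b may be split or shared by the counting, and exons of Psme1 overlap Emc9 on the other strand.

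Psme3, which forms a nuclear cap of a single subunit type, was at 175 and 194 CPM in TAZ-KO clones, against 138, 349 and 321 CPM in WT clones. WT clones 2 and 3 were highest and WT clone 1 lowest, with both TAZ-KO clones between and a log2 fold change of -0.55 (SE 0.41, adjusted p = 0.494 by edgeR). Without WT clone 1 the log2 fold change was -0.86 (SE 0.16, adjusted p = 0.00534 by edgeR), whereas with 1 surrogate variable it was 0.14. Psme4, the large monomeric nuclear activator, was at 145 and 147 CPM in TAZ-KO clones, against 97.4, 129 and 129 CPM in WT clones, with a log2 fold change of 0.30 (SE 0.21, adjusted p = 0.475 by edgeR), and both TAZ-KO clones were above every WT clone. WT clone 1 was the lowest library for it too.

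Of the symbols matched by letters alone, Psmc3ip, which assists strand exchange in homologous recombination, had the smallest adjusted p of all 43. It was at 21.1 and 22.3 CPM in TAZ-KO clones, against 13.8, 11.7 and 13.8 CPM in WT clones, with a log2 fold change of 0.73 (SE 0.23, adjusted p = 0.235 by edgeR). Without WT clone 1 the log2 fold change was 0.77 (SE 0.21, adjusted p = 0.0246 by edgeR). Both TAZ-KO clones were above every WT clone, and exons of the gene overlap Mlx on the other strand. Psme2b had 14 to 21 counts per library and a log2 fold change of 0.03 (SE 0.47, adjusted p = 0.981 by edgeR).

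The TAZ-KO clones also differed from each other, and several members, though not all, did so together with their chromosome. This pattern was noticed after the values were seen and was not tested. The median log2 difference, TAZ-KO clone 2 minus TAZ-KO clone 1, was -0.41 over 388 genes of chromosome 14 and -0.35 over 603 genes of chromosome 17. All 5 members on chromosome 14 (Psmb5, Psmc6, Psmd6, Psme1 and Psme2) lay between -0.45 and -0.31, and all 3 on chromosome 17 (Psmb1, Psmb8 and Psmb9) between -0.82 and -0.34. On chromosome 7, with a median of 0.32 over 870 genes, all 4 members (Psma1, Psmc4, Psmd8 and Psmd13) were between 0.23 and 0.50, and on chromosome 3, with 0.19 over 555 genes, the 3 members were between 0.11 and 0.33. Psmd2, the member on chromosome 16, had 0.34 beside a median of 0.44 over 355 genes. On chromosome 9 the median was 0.25 over 653 genes, and its member Psma4 was at 0.06. The 10 members on chromosome 11, where the median was -0.02 over 979 genes, were between -0.24 and 0.15. Psmb8 and Psmb9 therefore differed between the TAZ-KO clones in the direction of the median of their chromosome, by -0.82 and -0.58. On the scale used above for chromosome 2, the TAZ-KO and WT group values of chromosome 14 differed by -0.25. The log2 fold changes of its members were -0.53 for Psmb5, -0.48 for Psmc6, 0.18 for Psmd6, -0.01 for Psme1 and -0.10 for Psme2. The part of the chromosome in them was not tested. The study describes 4T1 as tetraploid, and copy number was not measured here.

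**Figure D5:**
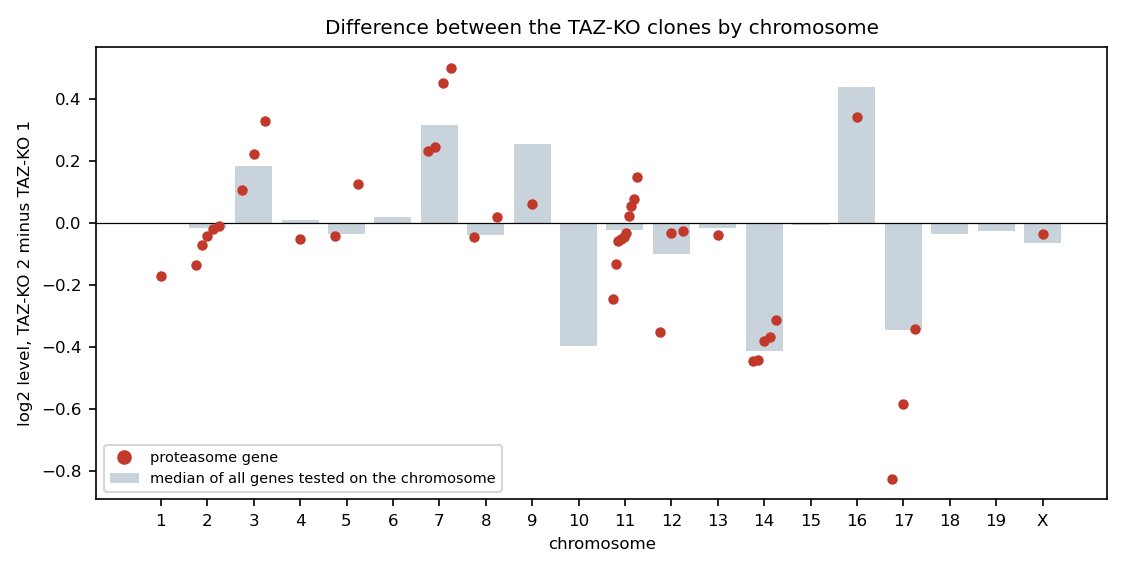
Log2 level in TAZ-KO clone 2 minus TAZ-KO clone 1 for each member (red points) and the median over all genes tested (grey bars), by chromosome. Members on chromosomes 14 and 17 lie below 0 and members on chromosomes 3 and 7 above 0, on the side of their chromosome's median.

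Genes that serve the proteasome without being members were taken from 5 lists, of which 59 of 64 genes were tested. edgeR called 0 of them in either direction, with 3 higher (5.08%, against 7.94% of all genes) and 8 lower (13.6%, against 9.41%) at an unadjusted p under 0.05. DESeq2 called 1 higher (Calr; 1.69%, against 2.15%) and 2 lower (Ifnar2 and H2-D1; 3.39%, against 3.11%). When WT clone 1 was left out, edgeR called 8 higher (13.6%, against 19.1%) and 14 lower (23.7%, against 19.7%). Among 13 assembly and associated genes (median log2 fold change -0.04), Akirin2, which brings proteasomes into the nucleus, was at 75.4 and 87.0 CPM in TAZ-KO clones, against 106, 184 and 224 CPM in WT clones, with a log2 fold change of -1.08 (SE 0.34, adjusted p = 0.235 by edgeR), and both TAZ-KO clones were lowest. Psmg3, part of a chaperone of the alpha ring, was at 9.92 and 10.3 CPM in TAZ-KO clones, against 10.9, 28.3 and 22.9 CPM in WT clones, with a log2 fold change of -1.03 (SE 0.43, adjusted p = 0.293 by edgeR). WT clone 1 was close to the TAZ-KO clones, and with 1 surrogate variable the log2 fold change was -0.37. Of 10 genes that drive proteasome transcription, 8 had a negative log2 fold change and the median was -0.37. The largest were those of Mafk and Maff, small partners of Nfe2l1. Mafk was at 27.0 and 35.1 CPM in TAZ-KO clones, against 31.3, 108 and 115 CPM in WT clones, with a log2 fold change of -1.45 (SE 0.56, adjusted p = 0.277 by edgeR). WT clone 1 lay between the TAZ-KO clones, and with 1 surrogate variable the log2 fold change was -0.40. Maff had a log2 fold change of -0.85 (SE 0.27, adjusted p = 0.232 by edgeR). Nfe2l1 itself was at 357 and 369 CPM in TAZ-KO clones, against 343, 714 and 689 CPM in WT clones, with a log2 fold change of -0.68 (SE 0.36, adjusted p = 0.360 by edgeR). WT clone 1 lay below both TAZ-KO clones for Nfe2l1. The 11 shuttling and ubiquitin genes had a median of 0.01, with Vcp, the segregase that extracts proteins for degradation, at 0.69 (SE 0.26, adjusted p = 0.268 by edgeR). Leaving out WT clone 1 gave log2 fold changes of -1.33 for Akirin2, -1.33 for Psmg3, -1.84 for Mafk, -1.01 for Maff, -0.95 for Nfe2l1 and 0.92 for Vcp. Each of these passed edgeR's test. Values with 1 surrogate variable were -0.58 for Akirin2, -0.58 for Maff, -0.13 for Nfe2l1 and 0.44 for Vcp, and none of them passed. Nfe2l2, of the same list as Nfe2l1, did pass that fit, at -0.86 (adjusted p = 0.0371 by edgeR). On all 5 libraries its log2 fold change was -0.61 (adjusted p = 0.306 by edgeR), with both TAZ-KO clones lowest. Without WT clone 1 it was -0.39 and did not pass.

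Among the 15 inducers of the immunoproteasome the median log2 fold change was -0.22. Ifnar2, a chain of the type I interferon receptor, was at 12.1 and 19.6 CPM in TAZ-KO clones, against 37.5, 75.3 and 70.2 CPM in WT clones, with a log2 fold change of -1.94 (SE 0.40, adjusted p = 0.144 by edgeR), and both TAZ-KO clones were lowest. It passed DESeq2 (adjusted p = 0.000636), and without WT clone 1 its log2 fold change was -2.20 (SE 0.24, adjusted p = 0.000772 by edgeR). Irf1, which activates Psmb9, was at 69.7 and 70.3 CPM in TAZ-KO clones, against 80.6, 89.1 and 82.2 CPM in WT clones, with a log2 fold change of -0.26 (SE 0.18, adjusted p = 0.462 by edgeR), again without overlap. Irf8 ranged from 20.7 to 82.1 CPM in the TAZ-KO clones and from 11.2 to 47.7 CPM in the WT clones, with a log2 fold change of 1.08 (SE 0.78, adjusted p = 0.485 by edgeR) that was -0.22 without TAZ-KO clone 2, 1.79 without TAZ-KO clone 1, 2.04 without WT clone 1 and 0.42 with 1 surrogate variable. The 10 genes of class I peptide supply had a median of -0.30. Tap1 and Tap2, which pump peptides into the endoplasmic reticulum and lie beside Psmb9 and Psmb8 on chromosome 17, both averaged lower in TAZ-KO clones. Tap1 was at 15.1 and 7.01 CPM in TAZ-KO clones, against 20.7, 22.3 and 14.1 CPM in WT clones. Tap2 was at 56.1 and 30.8 CPM in TAZ-KO clones, against 80.9, 105 and 63.6 CPM in WT clones. TAZ-KO clone 2 was the lowest library for Psmb8, Psmb9, Tap1 and Tap2. The log2 fold changes were -0.78 (SE 0.41, adjusted p = 0.362 by edgeR) for Tap1, which was -1.42 without TAZ-KO clone 1, and -0.93 (SE 0.35, adjusted p = 0.265 by edgeR) for Tap2, and without WT clone 1 that of Tap2 was -0.95 (SE 0.32, adjusted p = 0.0479 by edgeR). Calr, a chaperone of class I loading, was at 1533 and 1293 CPM in TAZ-KO clones, against 735, 439 and 444 CPM in WT clones, with a log2 fold change of 1.39 (SE 0.30, adjusted p = 0.151 by edgeR), and both TAZ-KO clones were above every WT clone. H2-D1, a class I heavy chain, had -0.89 (SE 0.20, adjusted p = 0.151 by edgeR). Leaving out WT clone 1 gave 1.68 (SE 0.19, adjusted p = 0.000832 by edgeR) for Calr and -0.84 (SE 0.15, adjusted p = 0.00511 by edgeR) for H2-D1.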

How the data were processed

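RNA-seq libraries were made from 5 clones of 4T1 cells, 2 TAZ-KO and 3 WT, and groups and replicate numbers were taken from the labels. The column names of the TAZ-KO libraries in the table contain YAP, whereas the labels say TAZ knockout, and the labels were followed. According to the study's methods the authors trimmed reads with cutadapt, aligned them with STAR and obtained gene counts with UTAP. The submitters' processing notes list mm10 and DESeq2. The authors deposited raw counts per gene, which were used, beside normalised and log-scale values and the log2 fold changes and p-values of their own comparison, none of which were used. Each listed gene had at least 6 counts in at least 1 library. The labels name an mRNA protocol and the methods a barcoded 3′ protocol, so levels of different genes were not ranked.

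Counts were normalised by TMM, filtered with filterByExpr by group and tested in edgeR 4.0.16 under R 4.3.3 (quasi-likelihood, no term but genotype). The p-values were adjusted by Benjamini-Hochberg over all genes tested, with a threshold of 0.05. A standard error is the absolute log2 fold change over the square root of its F statistic. The scripts were tested on simulated data. Alternatives were DESeq2 size factors and total counts in edgeR, no filter, a filter of 50 counts or more in 2 libraries or more, limma-voom 3.58.1, DESeq2 1.42.0, a block for the replicate number, 1 surrogate variable of sva 3.50.0 and leaving out each library. The study's methods name an sva correction for cultured cells without its terms. Alternatives for tables without counts did not apply. Intervals and floors cover counting error only, and total counts of 14695384 to 16452147 per library set the precision. Promoter windows are from RefSeq, and gene coordinates from GENCODE on mm10.

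The members and lists were chosen with earlier results of these data known. Named library by library were Psmb5 to Psmb10, the activators, the 2 members of each role with the largest absolute fold change, and of each pathway list the called genes and the 2 largest, with Tap1, Tap2 and Wwtr1, except for an item that is not reported here. Other members given library by library, and Nfe2l1, Nfe2l2, Irf1 and H2-D1, were chosen after their values were seen. A planned search for genes with a pattern like that of Psmb8 or Psmb9 was left out because 5 libraries are too few for a correlation.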

Additional observations from a re-analysis of the deposited data

How the results depend on the processing

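The 0 called members and 0 called pathway genes remained at 0 under both other scalings, both other filters and limma-voom. DESeq2 called 1 pathway gene higher and 2 lower, and 1 surrogate variable 1 higher and 3 lower. Leaving out 1 library gave 0 to 7 members called higher, 0 to 6 lower, 0 to 8 pathway genes higher and 0 to 14 lower, with the upper values without WT clone 1 and 0 without any other library. The members below every WT clone were 13 without WT clone 1, against 3 with it, and those above 17, against 14. The median log2 fold change of the constitutive genes was 0.14 with 1 surrogate variable and 0.02 to 0.08 when a library was left out, and 0.02 to 0.06 otherwise. Of 32 named genes 26 kept their sign in every alternative run. The sign turned for Psmb10 (-0.15), Psme3 (0.14) and Psmc5 (0.21) with 1 surrogate variable. Of members outside these 32, that fit also turned Psma1, Psmc2, Psmc3 and Psmc4. The sign turned for Psme1 with total counts (0.014), the stricter filter (0.0018) and limma-voom (0.062), and when a library was left out Psme1 ranged from -0.24 to 0.41, Psme2 from -0.24 to 0.052 and Irf8 from -0.22 to 2.04. None of these values passed the test except that of Irf8 without WT clone 1. The cause was not tested. The labels do not say whether replicate numbers pair the clones. Deviations of same-numbered libraries from their group means correlated at -0.124 and -0.1283. The TAZ-KO clones deviate from their mean by equal and opposite amounts, so these values are not independent and cannot show whether libraries were paired. The fit with the replicate block called 0 members and 0 pathway genes, with a median of 0.06 for the constitutive genes. Depth limits Psmb9 and Psme2b, which had fewer than 100 counts in every library.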
